A study of Homo sapiens with 12 samples.

Results

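The genes of the intestinal brush border were examined in HT29, a human colorectal adenocarcinoma cell line, after exposure to a water extract of Aconitum carmichaeli Debeaux (ACD). The 10 members are CDX2, VIL1, MYO1A, CDHR2, CDHR5, USH1C, SI, ALPI, ANPEP and DPP4. They were matched by symbol to the Ensembl gene IDs of the count table, by names that were chosen with earlier results of these data known. They are 10 of the 60675 genes listed, and 7 of them were among the 15374 genes with enough counts to be tested. RNA sequencing had been run on 12 bulk mRNA libraries, 3 in each of 4 groups. The cells had been kept for 24 h with vehicle, which was PBS with DMSO, or with ACD at 20 (low dose), 100 (medium dose) or 500 µg/mL (high dose). Every library came from the same unmodified line, and nothing in the labels says that the 3 libraries of a group were separate cultures, so p-values measure the spread between these libraries, which may be technical. The comparison asks whether a dose of ACD changed the amount of each transcript relative to vehicle.

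The brush border is the carpet of microvilli on the apical face of an absorptive enterocyte. Each microvillus holds a bundle of actin filaments that villin (VIL1) helps to cross-link and that myosin 1A (MYO1A) tethers to the membrane, and its tip carries the protocadherins CDHR2 and CDHR5, which join neighbouring microvilli and are anchored inside by the scaffold harmonin (USH1C). Digestive enzymes sit on the outer face: sucrase-isomaltase (SI) splits dietary disaccharides, aminopeptidase N (ANPEP) and dipeptidyl peptidase 4 (DPP4) trim peptides, and intestinal alkaline phosphatase (ALPI) removes phosphate groups. CDX2 is the homeobox factor that specifies intestinal epithelium and is known to bind the SI promoter, and HNF4 factors are nuclear receptors of the enterocyte. HT29 cells are known to stay largely undifferentiated under usual culture conditions.

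RefSeq promoter windows of 300 bases (build GRCh38.p14, 250 bases before to 50 bases after the start site) were found for 8 of the 10 members, 12 windows in all, and VIL1 and CDHR5 had none in the table used. Both strands were searched for the core letters TTTAT of CDX factors, which read ATAAA on the other strand. They were also searched for the HNF4 site CAAAGTCCA, which on the other strand reads TGGACTTTG. No match overlapped another. The windows of SI and CDX2 are shown because both were called in the trend over dose, for SI with the limit given below. That of MYO1A is shown because it alone held an HNF4 match, and that of DPP4 for contrast. They are written 5′ to 3′ along the gene, with every match in capitals.
SI, chr3:165078447-165078746, minus strand: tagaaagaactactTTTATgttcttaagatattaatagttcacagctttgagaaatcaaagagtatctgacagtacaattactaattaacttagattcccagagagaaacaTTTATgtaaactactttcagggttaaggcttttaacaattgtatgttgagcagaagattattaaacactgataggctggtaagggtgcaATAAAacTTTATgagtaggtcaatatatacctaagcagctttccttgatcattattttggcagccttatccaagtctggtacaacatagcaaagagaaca
CDX2, chr13:27969266-27969565, minus strand: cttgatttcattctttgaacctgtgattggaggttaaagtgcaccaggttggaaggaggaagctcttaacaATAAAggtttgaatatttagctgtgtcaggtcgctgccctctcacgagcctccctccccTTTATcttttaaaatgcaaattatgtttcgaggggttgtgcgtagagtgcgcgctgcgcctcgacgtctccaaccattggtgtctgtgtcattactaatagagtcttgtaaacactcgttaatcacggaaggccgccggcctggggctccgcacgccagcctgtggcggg
MYO1A, second window, chr12:57050080-57050379, minus strand: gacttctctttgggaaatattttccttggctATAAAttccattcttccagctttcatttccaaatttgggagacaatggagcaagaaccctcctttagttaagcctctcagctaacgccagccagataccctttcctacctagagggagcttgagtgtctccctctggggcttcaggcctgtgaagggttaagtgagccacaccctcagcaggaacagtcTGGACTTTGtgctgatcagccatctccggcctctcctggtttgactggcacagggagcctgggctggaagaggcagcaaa
DPP4, chr2:162074166-162074465, minus strand: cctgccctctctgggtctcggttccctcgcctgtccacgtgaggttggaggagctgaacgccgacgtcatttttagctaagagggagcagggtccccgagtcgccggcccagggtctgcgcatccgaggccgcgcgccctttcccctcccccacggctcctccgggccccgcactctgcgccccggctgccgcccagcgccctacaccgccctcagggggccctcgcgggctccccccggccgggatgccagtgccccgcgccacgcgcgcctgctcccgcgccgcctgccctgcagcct

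The SI window held 4 CDX cores, with their first bases at -236, -139, -50 and -43 from the start site. The CDX2 window held 2 CDX cores, at -179 and -120. A CDX core was found in 4 of the 12 windows (33.3%), those of SI, CDX2 and MYO1A, beside 34.9% of all 35097 promoter windows of this length, so the share among the members was near the background. The HNF4 site was found in 1 window, at -30 in the second MYO1A window, beside 0.385% of all. No searched letters were found in the windows of DPP4, CDHR2, ALPI, ANPEP and USH1C. A match describes these letters and not a bound site.

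Sequencing depth ran from 15941255 (high-dose replicate 2) to 33866644 expected counts (high-dose replicate 3), and 3 counts, taken as the floor of detection, corresponded to 0.0909 to 0.212 CPM (per-million counts) per library. High-dose replicate 2 stood apart from the other libraries of its group. Its log2 levels differed from the mean of the other high-dose libraries with an SD of 0.502 over 10626 genes, against 0.102 to 0.293 in the other 11 libraries, and this difference went with transcript length (Spearman rho = -0.57 over 10589 genes). Length also went with the difference in other libraries, with values from -0.661 in vehicle replicate 1 to 0.571 in high-dose replicate 3. Tests of the high dose against vehicle, for the tested members and the other genes named with such a test, are therefore given with and without replicate 2. RNA of the mitochondrial genome made up 14.0 to 16.6% of counts at the high dose and 7.41 to 11.1% in the other 3 groups. The 5 epithelial markers EPCAM, CDH1, KRT8, KRT18 and KRT19 were all well expressed, with a summed level of 10420 to 12510 CPM over all libraries. Among fibroblast and immune markers COL1A2 was at 0, and COL3A1, DCN, PDGFRB, PTPRC, CD3E and CSF1R had at most 3 counts in every library. Others of these lists, COL1A1, LUM, CD68 and LYZ, had enough counts to be tested. The fibroblast list summed to at most 2.90 CPM and the immune list to 1272 to 1896 CPM.

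The members differed widely in level. Divided by the length of the Ensembl canonical transcript, the mean level in vehicle was 26.7 ± 0.819 CPM per kb for VIL1 and 21.0 ± 2.47 for USH1C (SD, n = 3 for each). DPP4 followed with 10.1 ± 1.28, CDHR5 with 4.28 ± 0.148 and CDX2 with 1.46 ± 0.0228 CPM per kb. MYO1A stood at 0.249 ± 0.0262, ANPEP at 0.108 ± 0.0348 and SI at 0.0714 ± 0.0225 CPM per kb, and CDHR2 and ALPI were at or under the floor of detection. Among all 25125 genes with a length and a count, VIL1 lay above 89.3% and USH1C above 86.7%, CDX2 above 55.1%, and SI above 26.1%. The vehicle libraries of neighbours in this order overlapped only for ANPEP with SI and for CDHR2 with ALPI. The mean levels had the same order in all 4 groups, although at the high dose the libraries of SI overlapped with those of CDHR2. Of the hydrolases only DPP4 was present in amount: the 4 hydrolases summed to 36.7 ± 4.72 CPM in vehicle, and the 3 without DPP4 to 0.824 ± 0.205 CPM (SD, n = 3).

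**Figure D1:**
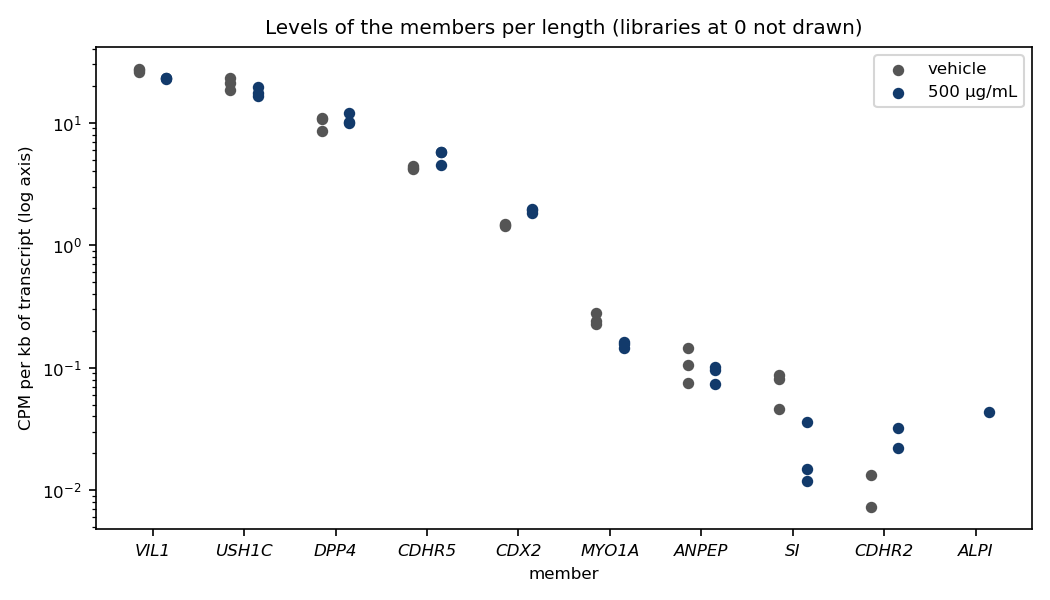
Level of each member in CPM per kb of canonical transcript (log axis) in the 3 vehicle (grey) and the 3 high-dose (dark blue) libraries, members ordered by their vehicle mean, with libraries at 0 not drawn. VIL1 and USH1C lie above 10 CPM per kb in every library shown, whereas MYO1A, ANPEP, SI, CDHR2 and ALPI lie below 1.

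No member passed the test against vehicle at any of the 3 doses (0 of 7 tested, edgeR quasi-likelihood test, adjusted p under 0.05 over all 15374 genes). Over all genes the same rule called 5.77% (high dose), 1.01% (medium dose) and 0.124% (low dose). At an unadjusted p under 0.05, 6 of the 7 members were past the threshold at the high dose (20.1% of all genes), 2 with the medium dose (11.7%) and 0 with the low one (7.95%). With DESeq2 on all libraries, 1 member, VIL1, was called at the high dose (8.41% of all genes), and 0 at the other doses. The 7 members did not lie on one side: at the high dose CDX2, CDHR5 and DPP4 had estimates above 0 and VIL1, MYO1A, USH1C and SI below 0, with a median log2 fold change of -0.21 beside 0.005 over all genes tested. The high-dose libraries lay all above the vehicle libraries for 2 members (10.5% of all genes) and all below them for 3 (11.5%), and the medium-dose libraries for 1 (14.5%) and 1 (14.1%). With high-dose replicate 2 left out 8 members were tested, as ANPEP then passed the filter (log2 fold change -0.23, adjusted p = 0.779, edgeR). The median was then -0.21, and 4 of the 8 (CDX2, CDHR5, VIL1 and USH1C) were called, beside 18.7% of the 15674 genes then tested. Without low-dose replicate 3, which enters through the shared spread, 1 (CDX2) was called, beside 4.55%. In a trend over dose rank, which treats vehicle, low, medium and high as equal steps, 1 member rose (CDX2, beside 2.76% of all genes) and 1 fell (SI, beside 2.98%), with 5.74% of all genes called in either direction. SI, which is also in the counts above, passed the count filter only through vehicle and low-dose libraries, in which it was high. These counts are therefore not independent of that filter, and with no filter the SI trend was not called (adjusted p = 0.0643, edgeR). In these bulk libraries fewer cells making a transcript and less transcript per cell cannot be told apart.

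**Figure D2:**
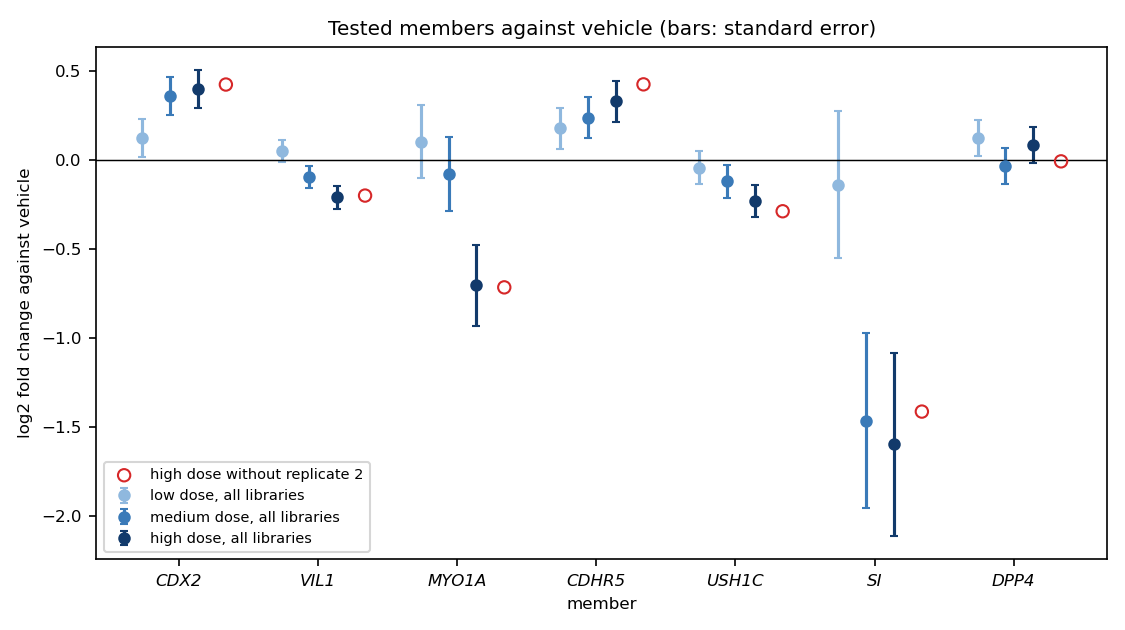
Log2 fold change against vehicle of the 7 tested members at the low, medium and high dose (filled points, from light to dark blue, bars are standard errors), and at the high dose without replicate 2 (red rings). SI lies lowest, at -1.60 at the high dose, CDX2 and CDHR5 lie above 0 at all 3 doses, and the DPP4 estimate without replicate 2 is -0.01.

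CDX2 (ENSG00000165556, chr13:27960918-27969315, minus strand, GRCh38), the intestinal homeobox factor, rose with dose. Its levels were 5.01, 4.94 and 5.10 CPM in the vehicle libraries and 5.94, 5.74 and 4.61 CPM at the low dose. They were 6.75, 6.33 and 6.22 CPM at the medium dose and 6.75, 6.30 and 6.67 CPM at the high dose. All medium-dose and high-dose libraries were above all vehicle libraries, and the low-dose libraries lay on both sides of them. Vehicle and high-dose means were 5.01 ± 0.0786 and 6.58 ± 0.242 CPM (SD, n = 3). The trend was a log2 change of 0.14 per dose rank (SE 0.03, adjusted p = 0.0244 with edgeR), and the call held in 13 of 18 alternatives. It was lost without vehicle replicate 2 or 3 (adjusted p = 0.0707 and 0.0503), without high-dose replicate 1 or 3 (0.0633 and 0.0649) and with no filter on low counts (0.0736). Against vehicle the high dose gave a 1.32-fold level (95% interval 1.12 to 1.55, adjusted p = 0.0520), and the medium dose a log2 fold change of 0.36 (adjusted p = 0.180), neither past the threshold. Without high-dose replicate 2 the high-dose change was 0.42 on the log2 scale with adjusted p = 0.0187, and over all alternatives tried this p ran from 0.0187 to 0.303. Its paralog CDX1, also an intestinal homeobox factor, had a log2 fold change of 0.23 at the high dose with adjusted p = 0.591 (0.26 and 0.470 without replicate 2).

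Over the 12 libraries, the genes whose log2 CPM was most like that of CDX2, among 13140 genes of at least 1 CPM, were GPR17 (Pearson r = 0.954), ZC3H12A (0.939) and FOSL1 (0.938). GPR17 codes for a G protein-coupled receptor, ZC3H12A for an RNase that degrades inflammatory mRNAs and FOSL1 for a subunit of the AP-1 transcription factor. Their means from vehicle to high dose were 0.682 and 1.97 CPM for GPR17, 20.5 and 29.6 CPM for ZC3H12A, and 25.2 and 35.4 CPM for FOSL1. These correlations are a description over libraries that share their doses. Without high-dose replicate 2 the same genes had r = 0.953, 0.939 and 0.935, at ranks 1, 8 and 12.

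VIL1 (ENSG00000127831, chr2:218419121-218453295, plus strand), the actin bundler, was the most abundant member and was lower at the high dose than at the low dose. Its levels were 168.1, 173.6 and 178.8 CPM in vehicle and 172.3, 185.7 and 179.9 CPM at the low dose. With the medium dose they were 154.8, 161.9 and 169.7 CPM, and at the high dose 150.4, 147.9 and 151.4 CPM. The 3 high-dose libraries lay within a narrow range below every other library. High against low dose, in which the vehicle libraries enter only through the shared spread and the scaling, gave a log2 change of -0.26 (SE 0.06, adjusted p = 0.0479 with edgeR), the only member called there, beside 1.54% of all genes called lower and 2.98% called in either direction. This call held in 4 of 20 alternatives and was lost when any library other than high-dose replicate 2 was left out, with an adjusted p of 0.0511 without vehicle replicate 1, 0.238 without low-dose replicate 2, and 3.88e-04 to 0.292 over all alternatives. High dose against vehicle gave a 0.864-fold level (95% interval 0.786 to 0.950, adjusted p = 0.0744), and without high-dose replicate 2 a log2 fold change of -0.20 with adjusted p = 0.0223 (0.00640 to 0.381 over all alternatives). VIL1 overlaps USP37 on the opposite strand, and whether strand was used in counting is not given in the sources used here.

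MYO1A (ENSG00000166866, chr12:57028517-57051198, minus strand), the membrane motor, was near the lower limit of what could be tested. It had 15, 29 and 23 counts in vehicle, 34, 24 and 20 at the low dose, 20, 28 and 18 in medium-dose and 13, 8 and 17 in high-dose libraries. Scaled to depth, the high-dose libraries stood at 0.585, 0.566 and 0.523 CPM and the vehicle libraries at 0.826, 0.879 and 1.01 CPM. Each high-dose library was below each library of the other 3 groups. The high-dose level was 0.614-fold that of vehicle (95% interval 0.436 to 0.864), which did not pass after adjustment (adjusted p = 0.121 with all libraries, 0.0936 without high-dose replicate 2, and 0.0790 to 0.673 over all alternatives). At the medium dose the log2 fold change was -0.08 and at the low dose 0.10. MYO1A overlaps TAC3 on the same strand, so reads of the shared stretch could count for either.

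The tip-link genes did not move together. CDHR5 (ENSG00000099834, chr11:616577-626078, minus strand) had 14.3, 14.9 and 14.0 CPM in vehicle and 15.3, 18.01 and 15.5 CPM at the low dose. It had 18.4, 14.8 and 17.8 CPM at the medium dose and 19.4, 15.2 and 19.3 CPM at the high dose. The low-dose and high-dose libraries were all above vehicle (as for 11.4 and 10.5% of all genes), and the lowest high-dose value was that of replicate 2. The high-dose level was 1.26-fold that of vehicle (95% interval 1.05 to 1.50, adjusted p = 0.133). Without replicate 2 the log2 fold change was 0.42 in place of 0.33, with adjusted p = 0.00592, and over all alternatives p ran from 0.00592 to 0.368.

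USH1C (ENSG00000006611, chr11:17493895-17544416, minus strand), which codes for harmonin, had estimates of the other sign. Vehicle libraries held 75.6, 68.9 and 59.6 CPM, low-dose libraries 62.0, 69.8 and 65.9 CPM, medium-dose libraries 62.3, 62.0 and 63.1 CPM and high-dose libraries 53.8, 63.0 and 57.2 CPM. Vehicle and high-dose libraries overlapped, and the highest of the high dose was again replicate 2. The high-dose level was 0.852-fold that of vehicle (95% interval 0.742 to 0.978, adjusted p = 0.179), and without replicate 2 the log2 fold change was -0.29 with adjusted p = 0.0186 (0.0186 to 0.633 over all alternatives).

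CDHR2 (ENSG00000074276, chr5:176542511-176595974, plus strand), the partner protocadherin of CDHR5, was nearly absent. It had 1, 1 and 0 counts in vehicle, 4, 2 and 3 in low-dose, 1, 1 and 1 in medium-dose and 3, 0 and 3 in high-dose libraries. The low-dose libraries were each above the vehicle libraries in counts, with an exact two-sided permutation p = 0.1, the smallest that 3 against 3 libraries allow, and p = 0.6 at the medium and 0.4 at the high dose. The summed vehicle count of 2 lies under the floor of 3 counts, so no fold change is given. The other known parts of the tip-link complex were in the microvillus list: ANKS4B, a scaffold that binds harmonin, had a log2 fold change of -0.31 at the high dose (adjusted p = 0.0651), the light chain CALML4 -0.30 (adjusted p = 0.0819) and the motor MYO7B -0.04 (adjusted p = 0.924). Without high-dose replicate 2 these values were -0.27 for ANKS4B (adjusted p = 0.0381), -0.43 for CALML4 (adjusted p = 3.60e-05) and 0.09 for MYO7B (adjusted p = 0.670). ANKS4B was lower at the high than at the low dose (log2 change -0.39, adjusted p = 0.0303).

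The 5 structural members together summed to 256.8 ± 3.00 CPM with vehicle, 262.6 ± 11.8 with low, 242.5 ± 7.92 with medium and 226.5 ± 2.09 CPM with high-dose ACD (SD, n = 3). The high-dose sums (224.3 to 228.5 CPM) did not overlap with those of vehicle (253.4 to 258.8 CPM). This sum is made up mostly of VIL1 and USH1C.

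**Figure D3:**
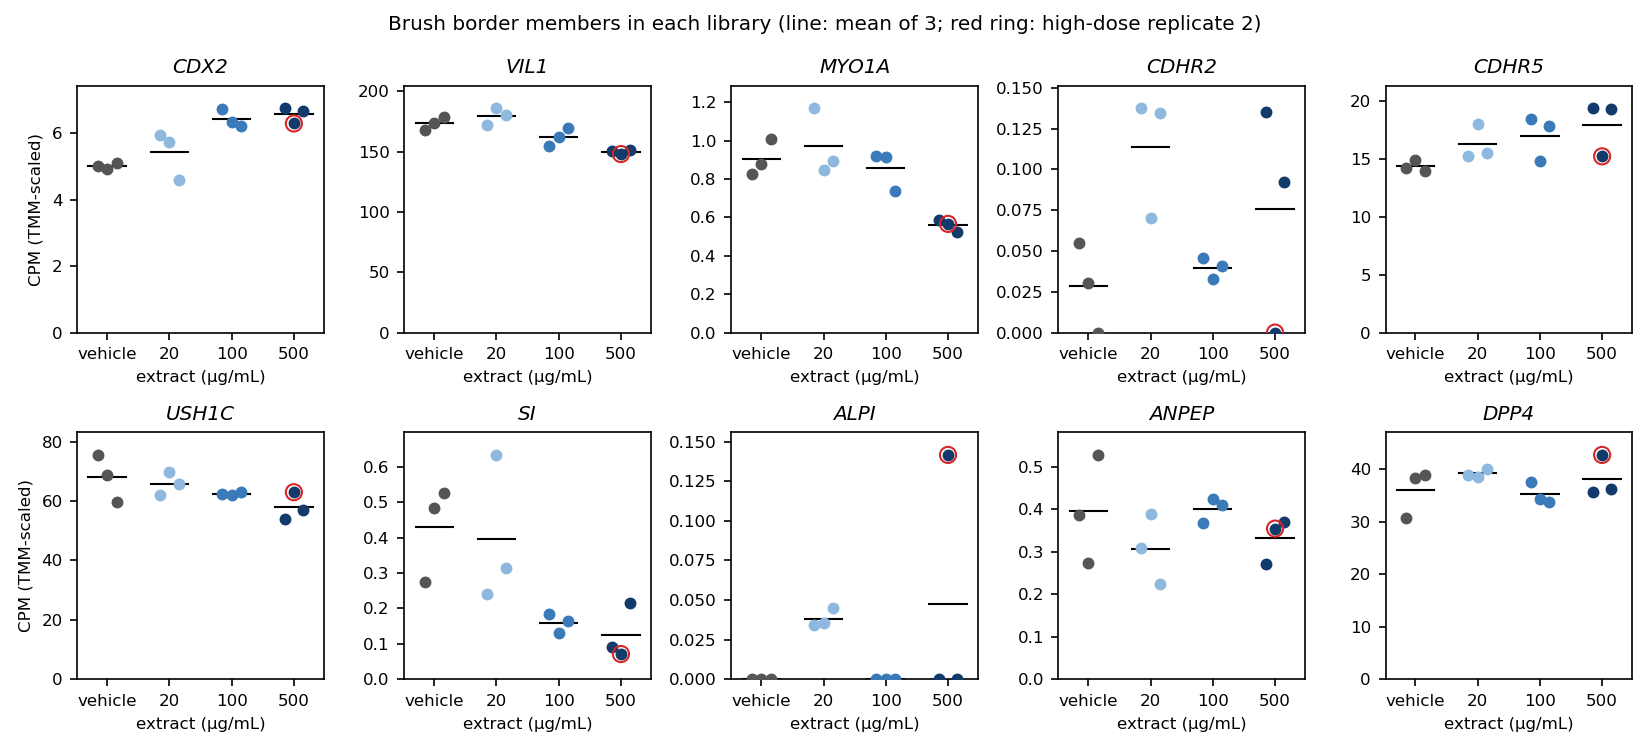
Level of each of the 10 members in CPM scaled by TMM in the 12 libraries, by ACD dose (each panel has its own axis from 0, lines are means of 3 libraries, and the red ring marks high-dose replicate 2). CDX2 lies above vehicle at the medium and high dose, SI below it, the VIL1 libraries at the high dose lie between 147.9 and 151.4 CPM, and CDHR2 and ALPI lie at a few counts.

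Among the hydrolases, SI (ENSG00000090402, chr3:164978898-165078496, minus strand) fell with dose from a low starting level. It had 5, 16 and 12 counts in vehicle and 7, 18 and 7 at the low dose, then 4, 4 and 4 in medium-dose and 2, 1 and 7 in high-dose libraries. In CPM the vehicle libraries stood at 0.275, 0.485 and 0.527, the low-dose libraries at 0.241, 0.634 and 0.313, the medium-dose libraries at 0.184, 0.131 and 0.164 and the high-dose libraries at 0.0901, 0.0708 and 0.215. Every medium-dose and high-dose library was below every vehicle library, whereas the low-dose libraries overlapped with vehicle. Summed over libraries, the 33 counts of vehicle and 10 of the high dose correspond to 0.446 CPM (95% Poisson interval 0.307 to 0.627) and 0.145 CPM (0.0696 to 0.267), intervals that cover counting error only. SI passed the count filter only through vehicle replicates 2 and 3 and low-dose replicate 2 (16, 12 and 18 counts). These are groups in which it was high, so the tests of SI are not independent of that filter. The trend was a log2 change of -0.61 per dose rank (SE 0.16, adjusted p = 0.0409 with edgeR). It was called in 6 of 17 alternatives, with adjusted p from 0.0270 to 0.116, and was not called with no filter on low counts (adjusted p = 0.0643). It was lost without any 1 of the libraries other than vehicle replicate 1, low-dose replicate 2 and high-dose replicate 2, for example with adjusted p = 0.116 without vehicle replicate 2 and 0.0513 without high-dose replicate 3. Without high-dose replicate 2 it was -0.57 with adjusted p = 0.0286. Against vehicle the high-dose level was 0.331-fold (95% interval 0.153 to 0.717, adjusted p = 0.0958) and the medium dose gave a log2 fold change of -1.46 (adjusted p = 0.259), neither past the threshold. On the log2 scale the high-dose change was -1.60, and it was -1.41 when replicate 2 of that dose was left out (adjusted p = 0.0802), -2.35 when replicate 3 was (adjusted p = 0.0899) and -1.37 when replicate 1 was (adjusted p = 0.206), with adjusted p from 0.0695 to 0.454 over all alternatives.

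DPP4 (ENSG00000197635, chr2:161992245-162074394, minus strand), the peptidase that inactivates incretin hormones, did not pass the test against vehicle at any dose. Its levels were 30.7, 38.3 and 38.8 CPM in vehicle, 39.0, 38.5 and 40.1 in low-dose, 37.6, 34.2 and 33.7 in medium-dose and 35.6, 42.7 and 36.1 CPM in high-dose libraries. Each dose group overlapped with vehicle, whereas the low-dose libraries all lay above the medium-dose ones, a difference that was not tested. The highest and lowest values were those of high-dose replicate 2 and vehicle replicate 1. The high-dose level was 1.06-fold that of vehicle with a 95% interval of 0.907 to 1.23 (adjusted p = 0.725), and without replicate 2 the log2 fold change was -0.01 in place of 0.08. The divergent transcript DPP4-DT overlaps its start on the opposite strand.

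ANPEP (ENSG00000166825, chr15:89784895-89815401, minus strand) had 7, 9 and 12 counts in vehicle, 9, 11 and 5 in low-dose, 8, 13 and 10 in medium-dose and 6, 5 and 12 in high-dose libraries. All 4 groups overlapped, and exact two-sided permutation p-values against vehicle were 0.5, 1.0 and 0.4 from low to high dose. ALPI (ENSG00000163295, chr2:232456125-232460753, plus strand) had 0 counts in all vehicle and medium-dose libraries, which allows a level of up to 0.0406 CPM over the vehicle group (3 counts). It had 1 count in each low-dose library, and 0, 2 and 0 at the high dose. The low-dose p was 0.1 (exact two-sided permutation test), the smallest possible. ALPI, ALPP and ALPG are near-identical neighbours, so the assignment of such reads is uncertain.

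Other genes of the brush border and of the enterocyte were counted in 4 lists of genes that are not members. Of the microvillus structure list, 24 of 25 genes were tested, and at the high dose 0 rose and 1 fell (2.82 and 2.95% of all genes), with a median log2 fold change of -0.04. The gene that fell was STX3, a syntaxin of the apical membrane. It had 136.7 ± 5.89 CPM for vehicle and 105.9 ± 9.55 CPM for the high dose (SD, n = 3, log2 fold change -0.37, SE 0.08, adjusted p = 0.0184, called in 15 of 21 alternatives with p up to 0.181). That call was lost without vehicle replicate 2 or 3 (adjusted p = 0.0815 and 0.0862) and without high-dose replicate 1 or 3 (0.0669 and 0.0765). Leaving out replicate 2 of the high dose gave a log2 fold change of -0.44 (adjusted p = 1.38e-04). Ezrin (EZR), which links microvillar actin to the membrane, had a log2 fold change of -0.03 and EPS8, an actin capping protein of microvillus tips, of -0.002, with adjusted p = 0.862 and 0.995 (-0.04 and 0.007 without high-dose replicate 2, adjusted p = 0.627 and 0.946).

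Of 21 further brush border hydrolases, 7 were tested and 0 were called at any dose, and 9 had at most 3 counts in every library (among them LCT, ACE, MEP1B, TMPRSS15, FOLH1, XPNPEP2, ENPP7 and ALPL). MGAM2, a maltase-glucoamylase paralog, had 44.2 ± 7.51 CPM for vehicle and 40.0 ± 18.5 CPM for the high dose (log2 fold change -0.13, adjusted p = 0.856). GGT1, a gamma-glutamyl transferase, had a log2 fold change of -0.07 (adjusted p = 0.780), and ASAH2, a neutral ceramidase of the brush border, of 0.13 (adjusted p = 0.606). Without high-dose replicate 2 the log2 fold changes were 0.19 for MGAM2, -0.02 for GGT1 and 0.08 for ASAH2, with adjusted p = 0.416, 0.903 and 0.695. The sequences of MGAM2 and MGAM are close, and their reads could be split between them. Enterocyte differentiation markers had 9 of 20 genes tested and 0 called against vehicle at any dose, with APOA4, APOB and SLC26A3 at 0 in all 12 libraries and a median log2 fold change of -0.04 at the high dose. Of the most abundant of them, the log2 fold change at the high dose was -0.04 for LGALS4, 0.26 for KRT20 and 0.19 for PHGR1, with adjusted p = 0.860, 0.210 and 0.550. When replicate 2 of the high dose was left out these were -0.16, 0.09 and -0.05, with adjusted p = 0.0773, 0.285 and 0.683. For 1 of the 9 tested markers, KRT20, every high-dose library lay above every vehicle library (10.5% of all genes). For 4 of the 9 every high-dose library lay below every vehicle library (11.5% of all genes). These 4 had log2 fold changes of -1.17 for CLCA4, of a family of chloride channel regulators, -1.15 for GUCA2A, a precursor of the hormone guanylin, -0.44 for CA2, a carbonic anhydrase, and -0.26 for GPA33, a surface glycoprotein. Their adjusted p was 0.0765, 0.124, 0.0694 and 0.206. With that library left out their log2 fold changes were -0.89, -1.01, -0.59 and -0.21, and CA2 was then called (adjusted p = 2.35e-04, against 0.0547, 0.127 and 0.238 for CLCA4, GUCA2A and GPA33). The other marker called with that library left out was CDH17, a cadherin of intestinal epithelium, which was then higher (log2 fold change 0.42, adjusted p = 0.0306). In that fit 18.7% of all genes were called. CLCA4 stood at 1.02 ± 0.0239 CPM in vehicle and 0.402 ± 0.240 CPM with high-dose ACD, and GUCA2A stood at 0.489 ± 0.157 CPM in vehicle and 0.195 ± 0.0977 CPM with high-dose ACD. GUCA2A passed the count filter only through libraries of the other groups, in which it was higher. Its test and its place among these 4 markers are therefore not independent of that filter.

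Of the intestinal transcription factors 13 of 17 were tested. At the high dose 1 rose and 2 fell (2.82 and 2.95% of all genes), and 0 were called at the medium and low dose. HNF4G, a nuclear receptor of enterocytes, fell from 53.3 ± 2.20 to 40.2 ± 0.744 CPM (log2 fold change -0.41, SE 0.06, adjusted p = 0.00188, called in 20 of 21 alternatives), and the log2 fold change was -0.41 without high-dose replicate 2 (adjusted p = 1.86e-04). KLF4, a zinc finger factor of differentiated epithelium, rose from 7.90 ± 0.130 to 10.6 ± 1.03 CPM (log2 fold change 0.42, SE 0.10, adjusted p = 0.0347). The KLF4 call held in 12 of 21 alternatives and was lost without any 1 vehicle library (adjusted p = 0.0793 to 0.112), without high-dose replicate 1 (0.114) and without medium-dose replicate 3 (0.0503), and leaving out replicate 2 of the high dose gave a log2 fold change of 0.42 (adjusted p = 0.0126). In the HNF4G data the 3 high-dose libraries (39.5 to 41.0 CPM) lay below every vehicle library (51.2 to 55.6 CPM). Its close relative HNF4A did not pass, with a log2 fold change of -0.25 and adjusted p = 0.276 (-0.11 and 0.324 without high-dose replicate 2). GATA4 and MAF were at 0 in all libraries. Across the 4 lists 4 of 53 tested genes were called at the high dose, which is 7.55% beside 5.77% of all genes. The count was 14 without high-dose replicate 2, beside 18.7% of all genes, 2 without high-dose replicate 1, and 1 (HNF4G) without vehicle replicate 2.

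**Figure D4:**
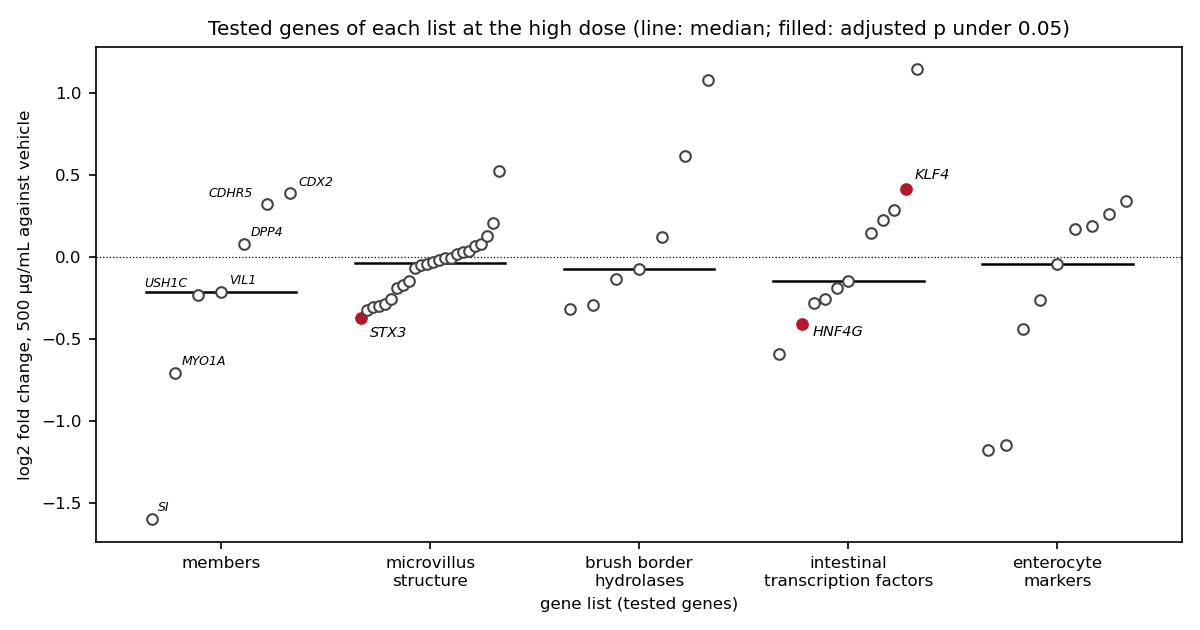
Log2 fold change at the high dose against vehicle for the tested members and the tested genes of the 4 other lists, leaving out genes that are counted but not reported by name (circles, filled red where the adjusted p is under 0.05, lines are medians). The filled points are STX3, HNF4G and KLF4, and the medians of the 5 groups lie between -0.21 and -0.04.

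Markers of other cell types moved in part with dose. The 7 goblet cell markers summed to 301.6 to 314.5 CPM in vehicle, 273.2 to 281.4 with low, no more than 252.6 with medium and 194.3 to 250.7 CPM with high-dose ACD. Of 6 tested, 1, TFF3, fell at the high dose, beside 2.95% of all genes (log2 fold change -0.67, adjusted p = 0.0387, and -0.79 without high-dose replicate 2, adjusted p = 0.00243). With that library left out 4 of the 6 fell, beside 18.7% of all genes then called in either direction. The 6 enteroendocrine markers summed to at most 0.708 CPM in any library, with CHGB, NEUROD1, PYY and GCG at 3 counts or fewer. The 6 fibroblast markers summed to at most 2.90 CPM, with 0 of 2 tested called at any dose. Of the immune list, which summed to 1272 to 1896 CPM, only CD68 and LYZ, a lysozyme also made by gut epithelium, were tested, and CD68, a lysosomal protein also made outside the immune system, rose (log2 fold change 0.57, adjusted p = 0.0151, and 0.60 without high-dose replicate 2, adjusted p = 0.00222). The part of these shifts, and of the higher mitochondrial share at the high dose, in the results of the members was not tested, apart from leaving mitochondrial genes out of the library sizes, with which 0 members were again called at any dose against vehicle.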

How the data were processed

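RNA sequencing of HT29 cells (12 libraries, 3 for vehicle and each of 3 ACD doses) was used. Libraries had been made from mRNA with a directional kit and read as pairs of 100 bases. Per the labels, the authors used FastQC 0.11.9, Trim Galore 0.6.5, STAR 2.7.3a and RSEM 1.3.3, and deposited expected counts per Ensembl gene of release 84 (GRCh38). The strand setting of RSEM is not given in the sources used here. Groups came from the sample titles, which name ACD, whereas the treatment note of the labels describes an extract of another herb, Poria cocos.

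Expected counts were rounded and tested with edgeR 4.0.16 in R 4.3.3 (filterByExpr, TMM, robust quasi-likelihood test, 4 groups in 1 fit), with Benjamini-Hochberg adjustment over the 15374 genes tested and calls at adjusted p under 0.05. The study's own rule also asks for a fold change over 1.5 and a DESeq2 Wald test, which were alternatives (DESeq2 1.42.0). CPM used TMM-scaled library sizes. Symbols were matched for 93.2% of the gene IDs, positions and transcript lengths came from GENCODE (GRCh38), and promoters from RefSeq (GRCh38.p14). Members below the filter were compared by exact permutation tests. In simulated high-dose data over 15374 genes, edgeR recovered 63 of 100 genes changed 1.5-fold and 87 of 100 changed 2-fold, with 10 wrong calls. The simulation gave every gene the same spread and held no library that stood apart and no length effect. Its recovery and wrong calls therefore need not hold for the real libraries.

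The members and lists were chosen with earlier results of these data known. Named were all members, every gene of the other lists called at any dose (up to the 4 of smallest high-dose p), and otherwise the 3 with the highest mean CPM, besides the 3 genes most correlated with CDX2. Further genes (the paralogs CDX1 and HNF4A, the harmonin partners, EZR, EPS8, CLCA4, GUCA2A, CA2, GPA33, CDH17 and marker genes) were named after their values had been seen. Some genes are counted in the lists but are not reported here by name. Replicate numbers are shared between groups. Deviations of same-numbered libraries had r from -0.495 to 0.372 over 18 pairs, and the main fit did not treat them as pairs. The deviations also went with transcript length, so these correlations cannot exclude a pairing. Alternatives were another normalization, other filters, the 2 groups alone, leaving out each library, a replicate block, and, chosen after seeing the data, an offset for transcript length and 2 medians without single libraries.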

Additional observations from a re-analysis of the deposited data

How the results depend on the processing

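The number of members called at the medium and low dose stayed at 0 under every alternative, and at the high dose it was 0 except with DESeq2 on all libraries (1) and when single libraries were left out (0 to 4, with 4 without high-dose replicate 2). In the dose trend, 2 members became 0 with no filter on low counts, 1 with the replicate block (CDX2) and 1 with the 1.5-fold rule, and 0 to 5 when leaving out single libraries. The 5 came without high-dose replicate 2, beside 17.5% of all genes called in that trend and 5.74% with all libraries. Between high and low dose, 1 member became 0 with edgeR on the 2 groups alone, DESeq2 size factors, no filter, the replicate block, the length offset and the 1.5-fold rule, and 0 to 1 when leaving out single libraries. The other list genes called at the high dose were 4, and became 10 with DESeq2 on all libraries, 2 with DESeq2 and 0 with edgeR on the 2 groups alone, 8 with the length offset, 0 with the 1.5-fold rule and 1 to 14 leaving out single libraries. At the medium dose, 0 became 2 with DESeq2 on all libraries, 3 with DESeq2 or edgeR on the 2 groups alone, 2 with no filter, 1 with the length offset and 0 to 5 leaving out single libraries, and at the low dose 0 to 1. The cause of these shifts was not tested. Over all genes, 5.77% called at the high dose became 18.7% without high-dose replicate 2, 2.77% without vehicle replicate 2 and 8.44% with the length offset. Without high-dose replicate 2, 1.01% at the medium dose became 6.87%, 0.124% at the low dose 2.03%, and 2.98% between high and low dose 7.29%.

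Log2 fold changes turned sign with the length offset for VIL1 at the low dose (-0.012 in place of 0.047) and for DPP4 per dose rank (-0.002 in place of 0.008). Leaving out single libraries gave ranges that crossed 0: MYO1A -0.131 to 0.021 at the medium and -0.062 to 0.197 at the low dose, USH1C -0.131 to 0.036 and SI -0.677 to 0.136 at the low dose, DPP4 -0.019 to 0.149 at the high dose, -0.133 to 0.031 at the medium dose, -0.126 to 0.003 between high and low dose and -0.021 to 0.023 per dose rank, and, at the high dose, MGAM2 -0.382 to 0.189, LGALS4 -0.159 to 0.019 and PHGR1 -0.053 to 0.349. With the replicate block the calls of VIL1 between high and low dose (adjusted p = 0.0911), SI per dose rank (adjusted p = 0.0617) and KLF4 at the high dose (adjusted p = 0.0561, edgeR) were lost, and HNF4G and STX3 were called. Same-numbered libraries correlated from -0.495 to 0.372. Because their deviations also went with transcript length, these values cannot tell whether the numbers mark pairs.

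CDHR2, ALPI and ANPEP had too few counts for the main test, and with no filter their adjusted p at the high dose was 0.689, 0.674 and 0.951 (edgeR). With 3 against 3 libraries an exact test cannot go below 0.1.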

Other observations

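Over dose rank, further genes of the transcription factor and enterocyte lists passed the edgeR test, and they were named after their values had been seen. PRDM1, a zinc finger repressor known from the fetal intestinal epithelium, rose (log2 change 0.42 per dose rank, SE 0.11, adjusted p = 0.0356), with 1.22 ± 0.479 CPM for vehicle, 2.84 ± 0.488 for the medium and 2.55 ± 0.589 CPM for the high dose (SD, n = 3). FOXA2, a forkhead factor of endodermal epithelia, fell (log2 change -0.20 per dose rank, adjusted p = 0.0293), with 11.2 ± 1.83 CPM for vehicle and 7.19 ± 1.99 CPM for the high dose. CA2 fell as well (log2 change -0.14 per dose rank, adjusted p = 0.0466), from 17.7 ± 1.44 to 13.2 ± 2.83 CPM. GPA33 was lower at the high dose than at the low dose (log2 change -0.47, adjusted p = 0.0358), with 4.02 ± 0.335 against 5.62 ± 0.408 CPM. Over all genes, 5.74% were called in the trend and 2.98% between high and low dose. These calls come from the main fit alone, and how they held in the alternatives is not given here. Against vehicle at the high dose PRDM1 and FOXA2 did not pass (log2 fold change 1.15 and -0.59, adjusted p = 0.0585 and 0.0659, edgeR). Without high-dose replicate 2 the values were 1.28 and -0.41 (adjusted p = 0.0102 and 0.0338), in a fit that called 18.7% of all genes. ALPG, a germ-cell relative of ALPI, had 0.325 ± 0.161 CPM in vehicle and 0.940 ± 0.262 CPM at the medium dose (log2 fold change 1.56, adjusted p = 0.0594). It could pass the count filter only with its medium-dose and high-dose libraries, in which it was high, so this test is not independent of that filter. Its reads cannot be told apart with certainty from those of ALPP and ALPI.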
